A study of Rattus norvegicus with 12 samples.

Results

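The heat shock proteins and chaperonins of the embryonic rat testis were examined in descendants of females dosed with the fungicide vinclozolin. The members were the probe sets whose single annotated gene symbol starts with Hspa, Hspb, Hspd, Hspe, Hsph, Hsp90 or Dnaj, or is Tcp1 or a Cct subunit gene, without pseudogenes. These were 109 of 31099 probe sets, for 72 genes, and 88 of them, for 66 genes, were bright enough to be tested. Testes of male embryos at embryonic day 16 were measured on 12 Affymetrix arrays, 2 in each of 6 groups: the vinclozolin and the control lineage of the F1, F2 and F3 generations. Pregnant founder females had intraperitoneal injections of vinclozolin at 100 mg/kg/day, or of the sesame oil and DMSO vehicle alone, from day 8 to day 14 of pregnancy. F1 embryos were inside these females, whereas F2 and F3 embryos came from matings of undosed descendants. For F2 and F3 the labels of both lineages speak of mated animals from different control lines, so the lineage was taken from the sample titles. The rat strain was not given in the sources used here. Each array held RNA of about 10 pooled testes. Nothing in the labels tells if the pools behind a group's arrays were of separate litters, so p-values measure the spread between pools, which may be technical.

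Chaperones bind unfolded stretches of other proteins and keep them from clumping. Hsp70 proteins work in cycles of binding and release that are started by J-domain partners (the Dnaja, Dnajb and Dnajc genes) and reset by exchange factors of the Hsp110 class, while Hsp90 finishes the folding of signalling proteins, among them the androgen receptor, which vinclozolin metabolites block. Chaperonins enclose a protein in a ring: Hsp60 with its lid Hsp10 in mitochondria, and the ring called TRiC, built from Tcp1 and the Cct subunits, in the cytosol, where it folds actin and tubulin. Heat shock factors switch on many of these genes through the heat shock element, which repeats the block GAA in alternating directions.

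Inverted pairs of this block were looked for in the promoters of the member genes. Windows from 250 bases before to 50 after the start were available from RefSeq (GRCr8) for 61 of the 72 genes. Each of these genes was counted with 1 window, while for all genes every window of that length was counted. An inverted pair of such blocks, GAANNTTC or TTCNNGAA, which read the same on both strands and can overlap each other, stood in 17 of 61 member windows (27.9%) and in 5305 of 33469 windows of all genes (15.9%). A run of 3 alternating blocks stood in 5 member windows (8.2%; Cct4, Dnaja1, Hspd1, Hspe1 and Hsph1) and in 267 of all windows (0.798%). The facing genes Hspd1 and Hspe1 share 211 bases of their windows, so they are not separate cases. The windows of Hsph1 (chr12:10427118-10427417, plus strand), Hspe1 (chr9:64084077-64084376, plus strand), Dnajb1 (chr19:41431092-41431391, minus strand), Hspa9 (chr18:26828349-26828648, minus strand) and Cct6a (chr12:32519023-32519322, minus strand) are shown as examples that hold a match: Hspe1 holds a run of 3, and the other 4 genes are among the 5 whose probe sets are contrasted below. The windows of the other gene contrasted there, Hsp90ab1, and of Hspa4, Dnajc7, Dnajc14 and Dnajc5, all described below, held no inverted pair. Capitals mark the inverted pairs, and the order is 5′ to 3′ along the gene.
Hsph1: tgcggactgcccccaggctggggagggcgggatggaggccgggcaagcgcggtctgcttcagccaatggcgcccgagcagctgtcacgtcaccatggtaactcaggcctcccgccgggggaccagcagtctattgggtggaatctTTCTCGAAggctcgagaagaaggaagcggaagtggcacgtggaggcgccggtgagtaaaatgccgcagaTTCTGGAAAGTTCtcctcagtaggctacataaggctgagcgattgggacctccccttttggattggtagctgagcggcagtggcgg
Hspe1: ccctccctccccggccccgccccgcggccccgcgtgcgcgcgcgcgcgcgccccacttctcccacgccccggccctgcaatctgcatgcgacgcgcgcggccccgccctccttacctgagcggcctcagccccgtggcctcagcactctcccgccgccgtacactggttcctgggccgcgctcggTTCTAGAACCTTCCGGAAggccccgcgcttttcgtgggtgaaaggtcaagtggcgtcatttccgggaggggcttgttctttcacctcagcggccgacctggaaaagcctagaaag
Dnajb1: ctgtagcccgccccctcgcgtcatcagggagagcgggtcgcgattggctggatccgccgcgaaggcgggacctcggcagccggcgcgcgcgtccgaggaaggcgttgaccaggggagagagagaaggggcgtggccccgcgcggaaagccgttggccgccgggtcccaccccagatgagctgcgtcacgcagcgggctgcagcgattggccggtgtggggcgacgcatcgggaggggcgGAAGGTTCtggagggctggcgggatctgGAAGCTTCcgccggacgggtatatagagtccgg
Hspa9: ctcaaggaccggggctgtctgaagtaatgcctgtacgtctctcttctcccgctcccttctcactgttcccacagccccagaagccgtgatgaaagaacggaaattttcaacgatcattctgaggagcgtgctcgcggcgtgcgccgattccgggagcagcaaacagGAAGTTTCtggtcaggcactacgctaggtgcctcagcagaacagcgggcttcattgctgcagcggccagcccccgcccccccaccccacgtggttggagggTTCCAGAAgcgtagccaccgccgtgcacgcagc
Cct6a: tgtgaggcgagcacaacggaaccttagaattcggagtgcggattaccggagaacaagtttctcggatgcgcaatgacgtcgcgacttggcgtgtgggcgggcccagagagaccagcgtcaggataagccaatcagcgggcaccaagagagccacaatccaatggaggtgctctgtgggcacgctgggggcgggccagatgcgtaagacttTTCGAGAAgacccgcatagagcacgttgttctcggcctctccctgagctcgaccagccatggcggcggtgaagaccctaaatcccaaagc
These matches describe the letters of the windows and not binding by a factor.

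Markers of Sertoli and fetal Leydig cells, the defining somatic cells of the labelled tissue, were bright on every array. The Sertoli genes on the array summed to signals of 4282.1 to 5507.3 on vinclozolin arrays and 4959.9 to 5275.4 on control arrays, and the fetal Leydig genes to 12007.7 to 14312.1 and 10970.7 to 11666.6. Of the germ cell list, Kit alone was on the array, at 2.5 to 61.4 on vinclozolin arrays and 61.9 to 80.1 on control arrays. Sums ran from 1427.7 to 1957.3 against 997.9 to 1352.9 for erythroid genes, from 224 to 380.2 against 316.2 to 402.4 for striated muscle genes and from 195 to 285.2 against 251.1 to 278.9 for macrophage genes. Of the markers, Klf1 (erythroid), Myh3 (muscle) and Cd163 (macrophage) were too dim to test. In whole testis RNA, fewer cells of a type and less RNA per cell cannot be told apart. Beta-actin signal at the 5′ end over that at the 3′ end is a measure of RNA integrity and labelling. It was 0.192 and 0.149 on the F1, 0.247 and 0.219 on the F2 and 0.395 and 0.36 on the F3 vinclozolin arrays. The 6 control arrays gave 0.423 to 0.471. For Gapdh this ratio was 0.718 and 0.651 on the F1, 0.8 and 0.721 on the F2 and 1.023 and 0.97 on the F3 vinclozolin arrays. The control arrays gave 0.959 to 1.022. The beta-actin ratio did not overlap between the lineages, so its part in the results below cannot be told apart from that of lineage. A fit with this ratio as a covariate is described with the processing alternatives at the end.

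Many chaperone probe sets differed between the lineages in F1 and few did in F3, with rises and falls side by side. In F1, 11 of 88 members were higher and 14 lower in the vinclozolin lineage (limma, Benjamini-Hochberg adjusted p under 0.05 over 21729 tested probe sets, as for all calls), which is 28.4% of the members where 23.1% of all tested probe sets were called (9.41% higher and 13.7% lower). In F2, 4 were higher and 11 lower, or 17% where 14.3% of all were called (4.7% higher and 9.65% lower). In F3, 1 was higher and 3 were lower, or 4.55% where 3.11% of all were called (1.05% higher and 2.06% lower). For the mean of the 3 generations 12 were higher and 18 lower, or 34.1% where 33.3% of all were called (14.1% higher and 19.2% lower). These shares lay near the background in each comparison. The median log2 difference (vinclozolin minus control) over the members was 0.03 in F1, −0.02 in F2, 0.01 in F3 and 0.01 for the mean, while it was −0.01 over all tested probe sets in each of the 4.

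How many members counted as higher rested on the scaling. With each array centred on its median, the split was 20 higher and 9 lower in F1 and 11 and 9 in F2. It was 1 and 2 in F3, and 32 and 12 for the mean. Centring moved the median log2 difference over all tested probe sets to 0.10, 0.11, 0.04 and 0.09 in those comparisons. Under median centring the members' share called was 33% in F1, against 27% of all tested probe sets. It was 22.7% of members in F2, against 18.8% of all, 3.41% against 2.95% in F3, and 50% against 38.3% for the mean. Single arrays also moved the number of members higher in F1, and the number among all tested probe sets moved with it. Both were smaller without replicate 1 of the F1 control group and larger without replicate 1 of the F1 vinclozolin group. Of the calls in F1, 2 of 11 higher and 8 of 14 lower ones were made in each of the 12 fits that left out 1 array. In F2 the corresponding numbers were 1 of 4 and 8 of 11, in F3 0 of 1 and 2 of 3, and for the mean 7 of 12 and 12 of 18. No member differed among the 3 control groups (limma F test, 0 of 21729 probe sets called), and 4 of the 88 had an unadjusted p under 0.05.

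**Figure D1:**
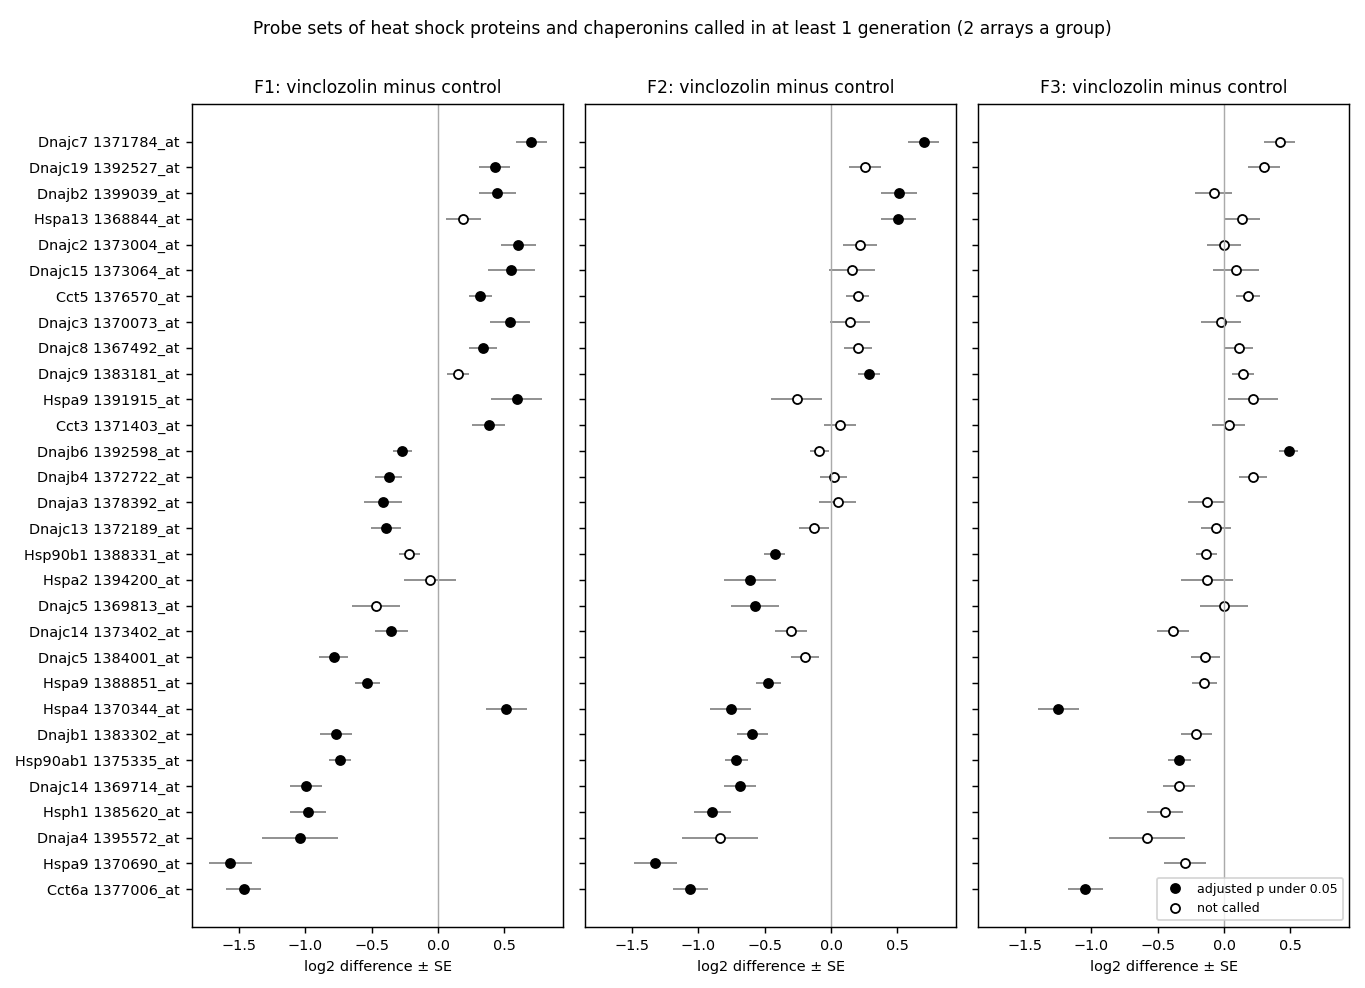
Log2 difference ± SE (vinclozolin minus control, 2 arrays a group) in F1, F2 and F3 for the 30 member probe sets called in at least 1 generation, with filled points for an adjusted p under 0.05. Cct6a 1377006_at and Hsp90ab1 1375335_at are filled on the left of 0 in all 3 panels, and Hspa4 and Dnajb6 are filled on opposite sides in different panels.

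The plot of called members shows 30 probe sets of 26 genes that were called in at least 1 generation, or 34.1% of the members where 28.8% of all tested probe sets were. The other 58 probe sets were called in none, and 40 genes had only such probe sets. In all 3 generations 2 members were lower (2.27%, where 0.907% of all tested probe sets were), Cct6a 1377006_at and Hsp90ab1 1375335_at, and 0 were higher (0.313% of all). A further 5 members were lower in F1 and F2 and not called in F3 (5.68%, where 6% of all were), namely the probe sets 1370690_at and 1388851_at of Hspa9, 1385620_at of Hsph1, 1383302_at of Dnajb1 and 1369714_at of Dnajc14. On 12 member probe sets each vinclozolin array was below each control array, or 13.6% where 7.73% of all tested probe sets were so split. On 4 members, Dnajc7, Dnajc8, Dnajc9 and Dnajc19, each vinclozolin array was above each control array (4.55%, where 5.52% of all were).

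TRiC, the cytosolic chaperonin, was measured by 11 probe sets of 8 subunit genes, and a single probe set of Cct6a stood apart from the others. Cct6a 1377006_at gave signals of 125.9 and 103.3 in F1, 163.8 and 162.7 in F2 and 177.3 and 139.9 in F3 vinclozolin testes, against 328.7 and 358.7, 345 and 372.5, and 311 and 378.1 in the control testes of these generations. The vinclozolin arrays were all below the controls with a wide gap. On the log2 scale this probe set fell by 1.47 ± 0.13 (SE) in F1 (adjusted p = 6.02e-06), by 1.06 ± 0.13 in F2 (adjusted p = 1.69e-04) and by 1.05 ± 0.13 in F3 (adjusted p = 7.88e-04). The other Cct6a probe set, 1398960_at, gave 1842.8 and 2244 in F1, 2045.7 and 1913.9 in F2 and 2053.7 and 2061.2 in F3 vinclozolin testes, against 1812 to 1869.4 in the 6 control testes. It was slightly higher for the mean of the generations (0.14 ± 0.05, adjusted p = 0.042), and that call was lost in 12 of 21 alternative settings. Thus 1 probe set of this subunit fell in each generation, while the other was called in no single generation.

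**Figure D2:**
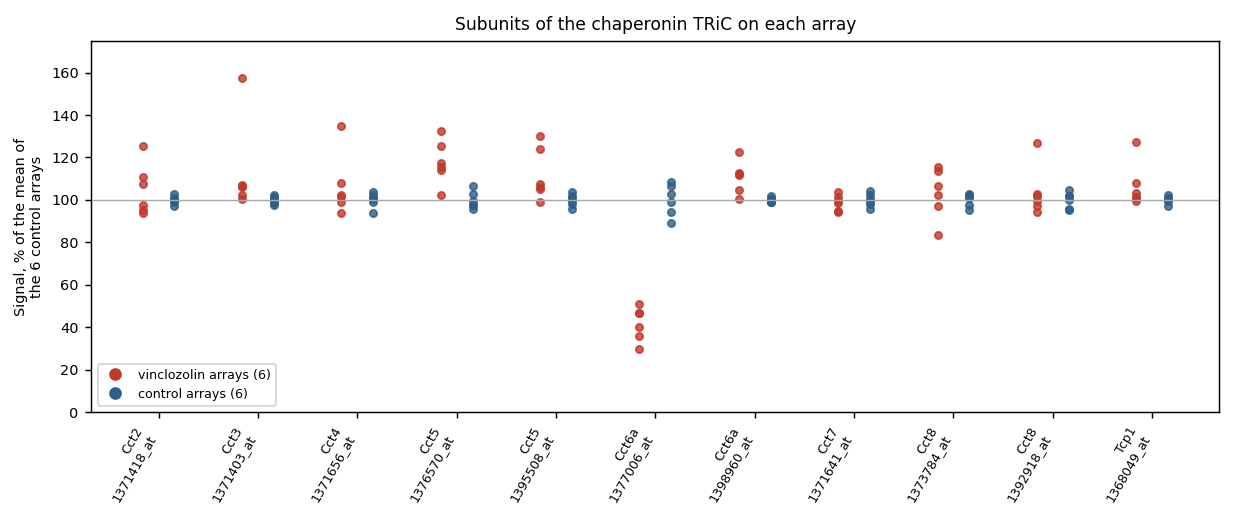
Signal of each TRiC probe set on the 6 vinclozolin (red, left of each pair) and 6 control arrays (blue), as a percentage of that probe set's mean over the control arrays. Cct6a 1377006_at lies at 29.6 to 50.8% on the vinclozolin arrays, while the other 10 probe sets lie between 83.4 and 157%.

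The other TRiC subunits differed little. Cct3 gave 2214.8 and 3282.4 in F1 vinclozolin testes, against 2040.8 and 2096 in F1 control testes, and rose by 0.38 ± 0.12 on the log2 scale (adjusted p = 0.0377). Of 22 alternative settings, 15 lost this call. Replicate 2 of the F1 vinclozolin group carried the rise: without it the difference was 0.10. The same array was also the highest of the 12 for Tcp1, Cct2, Cct4, Cct6a 1398960_at and both probe sets of Cct5 and Cct8, and the plot of TRiC subunits shows it as the top point. Cct5 1376570_at gave 3651.4 and 4236.1 in F1 vinclozolin testes, against 3119.3 and 3181 in F1 control testes, a rise of 0.32 ± 0.09 (adjusted p = 0.0163) that came to 0.21 without replicate 2 (adjusted p = 0.0805). For the mean of the generations Cct5 1376570_at rose by 0.23 ± 0.05 (adjusted p = 0.00255), but with quantile normalization the value was 0.10 (adjusted p = 0.0784). Tcp1, Cct2, Cct4, Cct7, both probe sets of Cct8 and Cct5 1395508_at were called in no comparison, with mean differences between −0.02 and 0.15.

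In mitochondria, the Hsp70 member Hspa9 (mortalin), which pulls imported proteins across the inner membrane, carried the deepest fall of any member in F1. Its probe set 1370690_at gave 213.7 and 145.1 in F1, 240.5 and 191.9 in F2 and 482.1 and 356.4 in F3 vinclozolin testes, against 569.7 and 537.5, 577.9 and 546.7, and 528.1 and 497.4 in the control testes. F1 and F2 vinclozolin values were less than those of F3, and all 6 were below the controls. It fell by 1.57 ± 0.16 in F1 (adjusted p = 1.37e-05) and by 1.32 ± 0.16 in F2 (adjusted p = 1.52e-04), while F3 gave −0.30 ± 0.16 (adjusted p = 0.353). A second probe set, 1388851_at, gave 680 and 605.5 in F1, 663.4 and 694.3 in F2 and 859.3 and 720.4 in F3 vinclozolin testes, against 941 and 932.3, 942.1 and 956.9, and 877.5 and 869.7 in the controls. It fell less, by 0.53 ± 0.09 in F1 and 0.47 ± 0.09 in F2, again without overlap of the lineages. Another, 1391915_at, was higher in F1 (129.5 and 230.6 in vinclozolin testes, against 104.7 and 114.7 in control testes; 0.59 ± 0.19, adjusted p = 0.0357). Without replicate 2 of the F1 vinclozolin group that difference was 0.21, and 10 of 21 alternative settings lost the call. The dim 1389930_at was not called in the 4 comparisons (−0.48, −0.22 and 0.37 in F1, F2 and F3).

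Of the 13 tested Hsp70 probe sets, 1 was higher and 2 were lower in F1, 1 and 3 in F2, and 0 in F3 (limma, 0 with an unadjusted p under 0.05). That is 23.1% in F1 and 30.8% in F2, where 23.1% and 14.3% of all tested probe sets were called. Hspa13, an ATPase of microsomes, gave 404 and 369.7 in F2 vinclozolin testes, against 238.7 and 298.7 in F2 control testes. The groups did not overlap, and the rise was 0.51 ± 0.13 (adjusted p = 0.0177). It was 0.36 without replicate 1 of the F2 control group. The call was lost without that array and without either F2 vinclozolin array. Hspa2, which in mice is needed by meiotic spermatocytes, was dim at both probe sets; 1394200_at gave 40.2 and 26.9 in F2 vinclozolin testes, against 59.4 and 58.9 in F2 control testes. That fall of 0.61 ± 0.20 was close to the threshold (adjusted p = 0.0493) and 14 of 22 alternative settings lost it. Hspa5 (BiP), the Hsp70 of the endoplasmic reticulum, was bright and not called, with 0.18 ± 0.08 in F1, −0.09 ± 0.08 in F2 and 0.01 ± 0.08 in F3. The heat-inducible Hspa1a gave 113.5 and 79.7 in F1 vinclozolin testes, against 134.1 and 127.2 in F1 control testes, a difference of −0.40 ± 0.14 that was not called (adjusted p = 0.0593). Without replicate 1 of the F1 vinclozolin group it was −0.62 (adjusted p = 0.00307). Hspa12a was higher for the mean (0.19 ± 0.07, adjusted p = 0.0427), a call lost in 11 of 21 alternative settings, and neither Hspa12b nor Hspa14 was called.

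The tested members of the Hsp110 class of exchange factors were Hspa4 and Hsph1. Hspa4 (1370344_at) gave 432.2 and 352.4 in F1 vinclozolin testes, against 255.7 and 282.5 in F1 control testes. In F2 it gave 133.4 and 173.5 in vinclozolin testes, against 271.7 and 264.4 in control testes, and in F3 82.4 and 108.8 against 218.4 and 280.7. It was thus the highest in F1 and the lowest in F3 among vinclozolin testes, and the vinclozolin and control values did not overlap in any generation. The log2 difference was 0.51 ± 0.15 in F1 (adjusted p = 0.0265), −0.76 ± 0.15 in F2 (adjusted p = 0.00482) and −1.25 ± 0.15 in F3 (adjusted p = 7.01e-04), and F3 held the deepest fall of any member there. The F1 call alone was lost without either F1 control array or without replicate 1 of the F1 vinclozolin group (adjusted p up to 0.166), while the F2 and F3 falls were called in each of the 12 fits that left out an array.

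Hsph1 (Hsp105) was represented by a pair of probe sets that differed. Its probe set 1385620_at gave 152.7 and 116.3 in F1, 160.4 and 128 in F2 and 208.7 and 172 in F3 vinclozolin testes, against 266.7 and 291.8, 280.2 and 280.4, and 269.2 and 258 in control testes. Each vinclozolin array lay below each control array. The falls were 0.98 ± 0.14 in F1 (adjusted p = 1.67e-04) and 0.89 ± 0.14 in F2 (adjusted p = 7.16e-04), and F3 gave −0.44 ± 0.14 (adjusted p = 0.0932). The brighter 1388898_at was called in no comparison (0.07 ± 0.08, 0.14 ± 0.08 and −0.09 ± 0.08).

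The same split appeared in Hsp90. Hsp90ab1, the constitutive cytosolic Hsp90, gave 1904.8 and 2024.6 in F1, 2288 and 1932 in F2 and 2471.6 and 2272.6 in F3 vinclozolin testes at 1375335_at, against 3239.2 and 3346.6, 3405.5 and 3511.3, and 2984.1 and 3016.9 in control testes. The lineages did not overlap in any generation. This probe set fell by 0.74 ± 0.09 in F1 (adjusted p = 3.42e-05), by 0.71 ± 0.09 in F2 (adjusted p = 1.44e-04) and by 0.34 ± 0.09 in F3 (adjusted p = 0.0445). The F3 call was lost in 12 of 21 alternative settings, among them without either F3 control array (adjusted p up to 0.268) and without replicate 2 of the F3 vinclozolin group (adjusted p = 0.312). At 1375336_at the same gene gave −0.09 ± 0.08, 0.06 ± 0.08 and 0.17 ± 0.08 with no call, and its mean difference of 0.04 turned to −0.14 under quantile normalization (adjusted p = 0.0431). Hsp90b1 (Grp94), the Hsp90 of the endoplasmic reticulum, gave 1748.8 and 1896.5 in F2 vinclozolin testes, against 2490.5 and 2411.8 in F2 control testes. It fell by 0.43 ± 0.08 there (adjusted p = 0.00247) and by 0.26 ± 0.05 for the mean (adjusted p = 4.96e-04), while −0.22 ± 0.08 in F1 and −0.14 ± 0.08 in F3 were not called.

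The mitochondrial chaperonin differed little. Hspd1 (Hsp60) was called in no comparison, with −0.03 ± 0.07 in F1, 0.14 ± 0.07 in F2 and 0.16 ± 0.07 in F3. Hspe1 (Hsp10), whose promoter holds the run of blocks shown above, gave 3178.8 and 4436 in F1, 3545.6 and 3170.9 in F2 and 3571.1 and 3700.7 in F3 vinclozolin testes, against 3022 and 3069.2, 3287.4 and 2968.1, and 3048 and 3193.7 in control testes. The lineages overlapped only in F2. It was higher for the mean (0.21 ± 0.07, adjusted p = 0.0283) and in no single generation. Quantile normalization took that difference to 0.08 (adjusted p = 0.132), and 10 of 21 alternative settings lost the call. Leaving out replicate 2 of the F2 control group gave 0.18 (adjusted p = 0.089), and leaving out replicate 2 of the F1 vinclozolin group gave 0.13 (adjusted p = 0.0223).

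The J-domain proteins, which choose substrates for Hsp70, were the largest group, with 48 tested probe sets of 37 genes. In F1, 7 were higher and 9 lower, in F2 3 and 3, in F3 1 and 0, and for the mean 6 and 11. The share called was 33.3% in F1, 12.5% in F2, 2.08% in F3 and 35.4% for the mean, beside 23.1%, 14.3%, 3.11% and 33.3% of all tested probe sets. Rises were led by Dnajc7, a partner of both Hsp70 and Hsp90. It gave 679.6 and 934 in F1, 725 and 758.5 in F2 and 628.8 and 627.3 in F3 vinclozolin testes, against 467.9 and 501.2, 444.9 and 457.4, and 478 and 454.2 in control testes. All 6 vinclozolin values stood above all 6 control values. Dnajc7 rose by 0.70 ± 0.12 in F1 (adjusted p = 6.38e-04) and by 0.70 ± 0.12 in F2 (adjusted p = 0.00129), and F3 gave 0.42 ± 0.12 (adjusted p = 0.0675). For the mean it rose by 0.61 ± 0.07 (adjusted p = 1.10e-05), the highest value of any member.

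Other Dnajc genes were higher in F1. Dnajc2, a ribosome-bound partner of Hsp70, gave 405.4 and 555 in vinclozolin testes, against 314.7 and 298.5 in control testes, and rose by 0.60 ± 0.13 (adjusted p = 0.00367). Without replicate 2 of the F1 vinclozolin group this value was 0.39 (adjusted p = 0.0274). The calls of Dnajc7 and Dnajc2 in F1 were the 2 rises made in every fit that left out an array. Rises of 0.55 in Dnajc15 (mitochondrial), 0.54 in Dnajc3 (P58IPK, of the endoplasmic reticulum), 0.43 in Dnajc19 (mitochondrial import) and 0.34 in Dnajc8 were each led by replicate 2 of the F1 vinclozolin group. Without that array they were 0.22, 0.28, 0.27 and 0.18, and none was called (adjusted p from 0.13 to 0.341). Dnajb2 (HSJ1) gave 176.4 and 144.1 in F1 and 161.8 and 197.1 in F2 vinclozolin testes, against 115.2 and 110.5, and 125.2 and 115.7 in control testes. It rose by 0.45 ± 0.14 in F1 and 0.51 ± 0.14 in F2, with no overlap in either, and −0.08 ± 0.14 in F3 was not called. Both calls were lost without either control array of their generation (adjusted p up to 0.149). The F1 call was also lost without replicate 1 of the F1 vinclozolin group (0.31, adjusted p = 0.124), and the F2 call without replicate 2 of the F2 vinclozolin group (0.38, adjusted p = 0.197). Dnajc9, a chaperone of histones, rose in F2 by 0.28 ± 0.08 (adjusted p = 0.0323), a call lost in 9 of 22 alternative settings. For the mean, rises of 0.33 in Dnajc19, 0.29 in Dnajb2, 0.28 in Hspa13, 0.27 in Dnajc2 and 0.19 in Dnajc9 were called in each of the 12 fits that left out an array. The vinclozolin signals of Dnajc9 ran from 1203.8 to 1429.2, all above the control range of 1093.2 to 1185.

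Falls among the J-domain proteins included Dnajb1 (Hsp40), the main partner of inducible Hsp70. Its probe set 1383302_at gave 225.1 and 269.7 in F1, 309.5 and 247.1 in F2 and 364.4 and 333.5 in F3 vinclozolin testes, against 451.5 and 412.8, 438.8 and 412.7, and 406 and 406.1 in control testes. All vinclozolin values were below the controls, and the distance was narrowest in F3. It fell by 0.77 ± 0.12 in F1 (adjusted p = 3.21e-04) and by 0.59 ± 0.12 in F2 (adjusted p = 0.00387), with −0.21 ± 0.12 in F3. The F2 call was lost without replicate 2 of the F2 vinclozolin group (−0.44, adjusted p = 0.0665) or replicate 1 of the F2 control group (−0.55, adjusted p = 0.0524). The other Dnajb1 probe set, 1388722_at, was lower for the mean alone (−0.16 ± 0.05, adjusted p = 0.0311), and 10 of 21 alternative settings lost that call. In F3 it gave 635.1 and 641.5 in vinclozolin testes, against 823.3 and 795.8 in control testes, without a call (−0.34 ± 0.09, adjusted p = 0.06).

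Dnajc14, which helps receptors leave the endoplasmic reticulum, was low at both of its probe sets. At 1369714_at it gave 105 and 92.6 in F1, 125.2 and 114.2 in F2 and 125.7 and 133.9 in F3 vinclozolin testes, against 198.7 and 227.2, 198 and 206.8, and 180.6 and 156.6 in control testes. It fell by 1.00 ± 0.12 in F1 (adjusted p = 4.86e-05) and by 0.69 ± 0.12 in F2 (adjusted p = 0.00164), and F3 gave −0.34 ± 0.12 (adjusted p = 0.141). At 1373402_at the vinclozolin signals of 110.7 to 131.7 were all below the control signals of 149.4 to 181, with −0.35 in F1, −0.31 in F2 and −0.39 in F3. The mean fell by 0.35 ± 0.07 (adjusted p = 0.00145). The F1 call of this second probe set (adjusted p = 0.0479) was lost in 11 of 12 fits that left out an array.

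Smaller falls in F1 were those of Dnaja3 (mitochondrial Tid1, −0.42), Dnajc13 (an endosomal protein, −0.39) and Dnajb4 (−0.37). Without replicate 1 of the F1 control group they were −0.26, −0.37 and −0.38, and the calls were lost. Of 22 alternative settings, 14 lost the call of Dnaja3, 6 that of Dnajc13 and 5 that of Dnajb4. The fall of Dnajc13 came to −0.19 without replicate 2 of the F1 vinclozolin group (adjusted p = 0.15) and to −0.59 without replicate 1 (adjusted p = 1.59e-04). Dnaja4 1395572_at fell by 1.04 ± 0.28 in F1, but its signals were dim. They were 1.8 to 15.8 on vinclozolin arrays and 19.2 to 38.5 on control arrays. The F1 call was lost without either F1 control array and without replicate 1 of the F1 vinclozolin group. For the mean 1395572_at fell by 0.82 ± 0.16 (adjusted p = 0.00141), a call lost in 1 of 19 alternative settings. The brighter Dnaja4 1398343_at gave 0.00 ± 0.12 in F1 and −0.01 ± 0.07 for the mean. Dnaja1, the partner of the constitutive Hsp70, was not called at either probe set (mean differences of 0.06 and 0.02), nor was Dnajb9, a target of the unfolded protein response (−0.16 ± 0.06 for the mean, adjusted p = 0.0652).

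**Figure D3:**
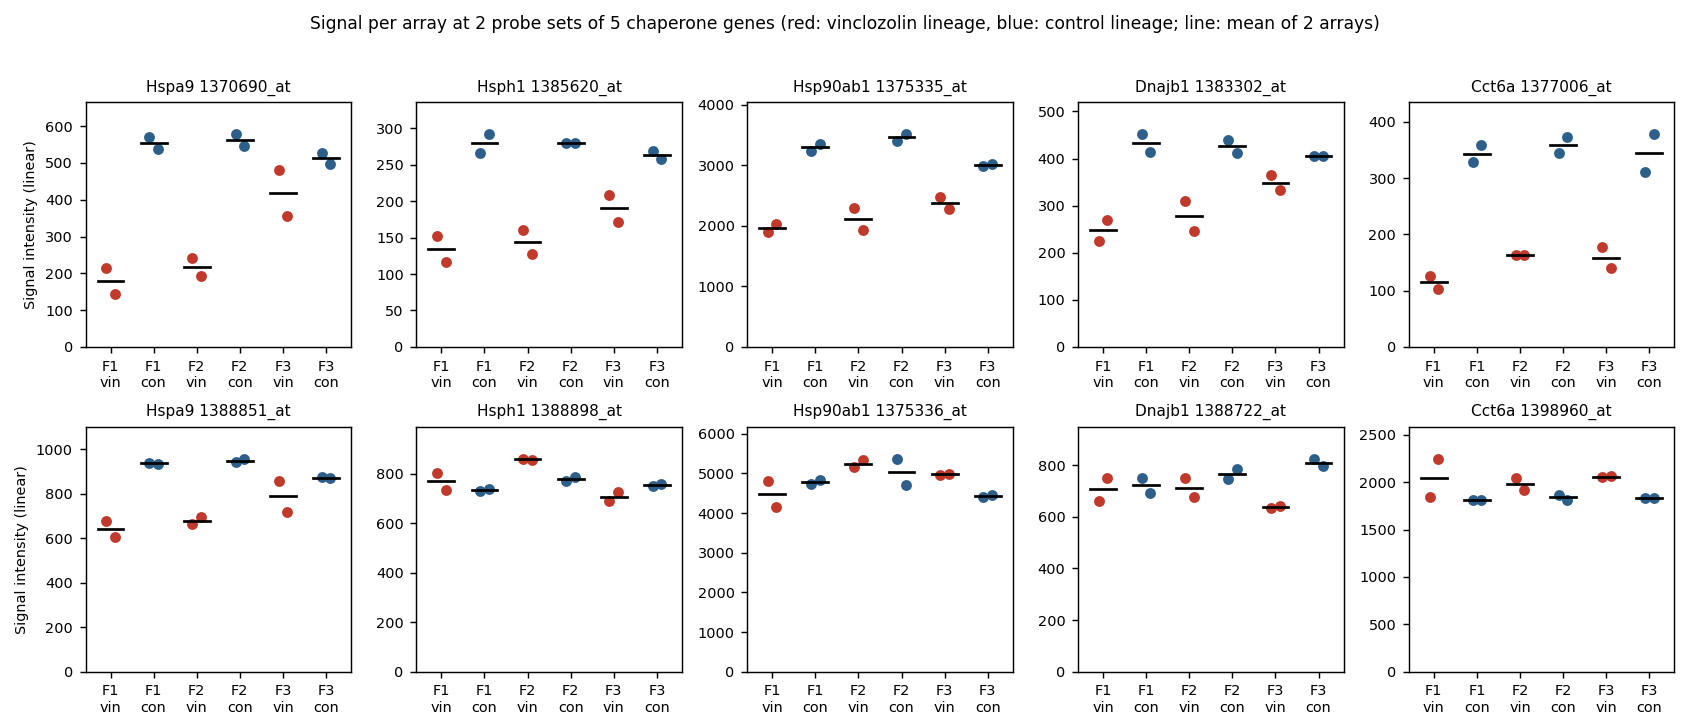
Signal on each array (red, vinclozolin; blue, control; line, mean of the 2 arrays) at a pair of probe sets for Hspa9, Hsph1, Hsp90ab1, Dnajb1 and Cct6a. Of each gene's tested probe sets, the 2 with the lowest mean log2 difference (vinclozolin minus control) are shown, the lowest in the upper row. In the upper row every vinclozolin point lies below every control point. In the lower row only Hspa9 1388851_at shows that, with a smaller gap.

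Disagreement between probe sets of 1 gene was common, as the plot of paired probe sets shows for 5 genes. Several tested probe sets were available for 19 member genes. In F1, 9 of these had a call, and in 1 of the 9, Dnajc14, each probe set was called in 1 direction. In Hspa9 calls went both ways, and in the 8 genes other than Dnajc14 at least 1 probe set was not called. For the mean 11 had a call, 2 (Dnajb1 and Dnajc14) at each probe set in 1 direction, 8 at a part of their probe sets, and Cct6a in both directions. The distance between the highest and lowest probe set of a gene had a median of 0.37 on the log2 scale in F1 and 0.26 for the mean, and reached 2.16 in F1 (Hspa9) and 1.33 for the mean (Cct6a). With only the brightest probe set of each gene, 66 members were tested, and 10 were higher and 6 lower in F1, 4 and 4 in F2, 1 and 1 in F3, and 12 and 8 for the mean. The share called under that setting was 24.2% in F1, 12.1% in F2, 3.03% in F3 and 30.3% for the mean, where it was 19.4%, 9.52%, 2.6% and 30.7% over all 11287 probe sets tested.

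**Figure D4:**
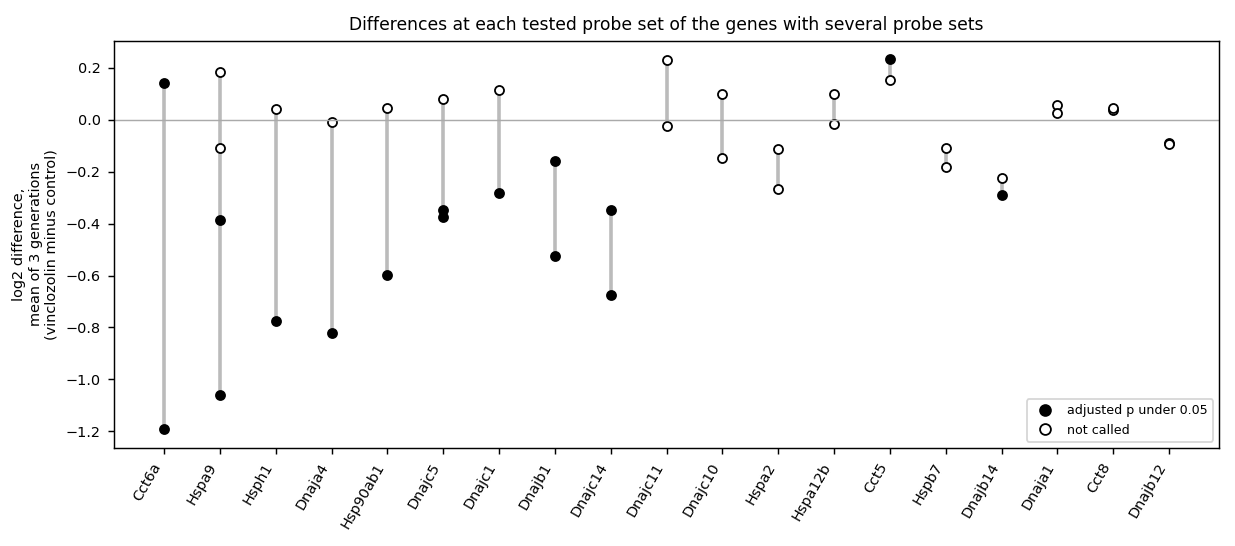
Log2 difference (vinclozolin minus control, mean of 3 generations) at every tested probe set of the 19 member genes with several, filled where the adjusted p was under 0.05. The lines joining probe sets of a gene are longest for Cct6a (1.33) and Hspa9.

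The lineage difference depended on generation for 4 members (limma F test), or 4.55% where 2.6% of all tested probe sets were called. Hspa4 (adjusted p = 0.00226) is described above. Dnajb6, which keeps aggregation-prone proteins soluble, gave 1297.9 and 1267 in F1, 1554.4 and 1507.5 in F2 and 2120.8 and 2095.5 in F3 vinclozolin testes, against 1538.7 and 1557.7, 1595.9 and 1665.1, and 1467.1 and 1530.5 in control testes. It was lower in F1 (−0.27 ± 0.07, adjusted p = 0.0147), not called in F2 (−0.09 ± 0.07) and higher in F3 (0.49 ± 0.07, adjusted p = 0.0027), where it was the only rise of a member. The F1 call was lost without either F1 control array (adjusted p up to 0.107) and the F3 call without replicate 1 of the F3 control group (0.46, adjusted p = 0.071). The F test of Hspa4 and of Dnajb6 was called in each of the 12 fits that left out an array.

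**Figure D5:**
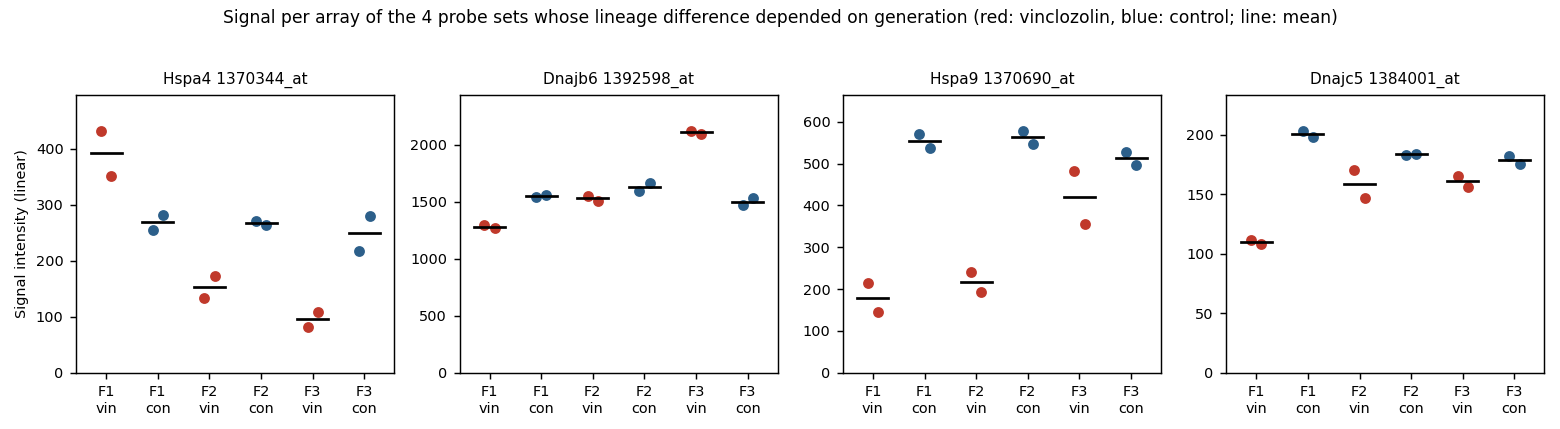
Signal on each array (red, vinclozolin; blue, control; line, mean of the 2 arrays) in F1, F2 and F3 for the 4 probe sets whose lineage difference depended on generation. Vinclozolin values of Hspa4 descend through the generations and cross the control values, those of Dnajb6 ascend and cross them, and those of Hspa9 and Dnajc5 approach the controls.

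The remaining pair, Hspa9 1370690_at (adjusted p = 0.0142) and Dnajc5 1384001_at (adjusted p = 0.0476), differed between the lineages less in later generations, as the plot of signals by generation shows. Dnajc5, the cysteine string protein of secretory vesicles, gave 111.3 and 108 in F1, 170.2 and 147 in F2 and 165.8 and 156.3 in F3 vinclozolin testes, against 203.4 and 198.4, 183.5 and 183.7, and 182.5 and 175.7 in control testes. All vinclozolin values were below the controls. It fell by 0.79 ± 0.11 in F1 (adjusted p = 1.42e-04), while F2 (−0.20) and F3 (−0.14) were not called. Of its other probe sets, 1369813_at was lower in F2 (−0.57 ± 0.18, adjusted p = 0.0461), which 17 of 20 alternative settings lost, and 1371666_at was not called. The F test of Hspa9 was lost in 4 and that of Dnajc5 in 8 of the 12 fits that left out an array (adjusted p up to 0.112 and 0.206).

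The small heat shock proteins, which hold unfolded proteins without using ATP, showed 0 calls at 6 tested probe sets of 5 genes in the 4 comparisons by limma, and 0 had an unadjusted p under 0.05. Hspb1 (Hsp27) gave 70.7 to 141.3 on vinclozolin arrays and 97.6 to 129.9 on control arrays, and the ranges overlapped. Hspbp1 and Hspbap1, which enter by their letters only, are not small heat shock proteins. Hspbap1 was higher for the mean (0.18 ± 0.06, adjusted p = 0.0261), a call lost in 8 of 21 alternative settings, and Hspbp1 was not called. The 21 untested member probe sets had signals of 0.2 to 25.6. Hspa1l and Hspa4l, which are known from the germ cells of the adult testis, Dnajb7, Dnajb13, Hspb2 and Hspb3 had no tested probe set. Hspa8, Hspa1b, Hsp90aa1 and Cct6b were not analysed here.

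Partners of the chaperones were described from a list of 59 heat shock factors, co-chaperones, prefoldins and folding factors of the endoplasmic reticulum and mitochondria, of which 53 genes were tested at 73 probe sets. In F1, 13 probe sets were higher and 14 lower (37%), in F2 5 and 12 (23.3%), in F3 0 and 3 (4.11%) and for the mean 18 and 19 (50.7%), beside the 23.1%, 14.3%, 3.11% and 33.3% of all tested probe sets given above. The list's median log2 differences were −0.05, 0.01, −0.03 and −0.04. Bag6, a chaperone of membrane proteins in the cytosol, fell by 1.54 in F1, 1.34 in F2 and 0.78 in F3 at 1375323_a_at, while 1387175_a_at gave −0.36, −0.10 and −0.37 without a call in a single generation. Hyou1, an exchange factor for BiP, fell at both probe sets in F1 (by 1.04 and 0.70) and F2 (by 1.03 and 0.60). Canx, the lectin chaperone calnexin, fell by 1.57 in F1 at 1371687_at and rose by 0.40 at 1371686_at, while −0.22 at 1388442_at was not called. Heat shock factor Hsf2 likewise fell by 0.81 at 1387430_at and rose by 0.33 at 1382598_at in F1, with no call at 1391423_at (0.10) and 1391876_at (−0.17), and Hsf1 fell by 0.42 at its probe set. Pdia4, a disulphide isomerase, fell by 0.49 in F1 and 0.93 in F2, and Calr (calreticulin) fell by 0.23 in F2 and 0.43 in F3. Fkbp5, a partner of Hsp90, fell by 0.72 in F1 and 0.56 in F2 at 1380611_at, where −0.27 in F3 was not called, and by 0.36 in F3 at 1388901_at, where −0.02 in F1 and 0.00 in F2 were not called. Ddit3, a transcription factor induced by stress of the endoplasmic reticulum, rose by 0.58 for the mean.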

How the data were processed

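RNA of pooled testes was hybridised to Affymetrix rat arrays, 12 arrays in 6 groups of 2, per the labels. The values deposited by the authors are linear signal intensity per probe set, with no detection calls used here. Their 2% trimmed mean was 125.03 or 125.04 on every array, so a scaling preceded deposit, and its software was not given in the sources used here. Values were taken as log2(signal + 16), which understates the fold changes of dim probe sets. Control probe sets and the lowest 30% by mean (signals under 14.8) were excluded, and 21729 probe sets were fitted with limma 3.58.1 in R 4.3.3 (6 group means, eBayes with trend, 6 residual and 8.97 prior degrees of freedom, Benjamini-Hochberg adjustment). With 2 arrays against 2, an exact permutation test cannot go below p = 0.333, so single-generation tests rest on the spread pooled over groups. The script was tested on simulated data.

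Gene symbols came from the array annotation, and all 109 member symbols were unchanged in the current rat gene table. Probe sets with several symbols were left out, 6 of which name a member gene. The members and the co-chaperone and marker lists were chosen with earlier results of these data known. Called members were named up to 12 higher and 12 lower in each comparison, with a set of well-known chaperones described whatever their values, up to 5 members per F test and up to 4 co-chaperones per comparison. Hsf1, the further probe sets of named genes and the members called for the mean outside that rule were named after their values were seen. Alternatives were other pseudocounts, filters and scalings, a replicate block, the beta-actin ratio as a covariate, the brightest probe set of each gene, single generations and each array left out. The mean of F2 and F3 alone was chosen after seeing the data. The replicate numbers of the labels were not treated as pairing: deviations of arrays with the same number correlated at −0.02 in F1, −0.04 in F2 and 0.03 in F3.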

Additional observations from a re-analysis of the deposited data

Results flagged for a closer look

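The difference between the lineages changed with generation for 4 chaperone probe sets, by limma's F test across the 3 generations. Hspa4 (1370344_at) had an adjusted p of 0.00226, with log2 differences (vinclozolin minus control) of 0.51 in F1, −0.76 in F2 and −1.25 in F3. Dnajb6 (1392598_at) had an adjusted p of 0.00351 and ran the opposite way, with −0.27 in F1, −0.09 in F2 and 0.49 in F3. Hspa9 (1370690_at) had an adjusted p of 0.0142, with −1.57, −1.32 and −0.30. Dnajc5 (1384001_at) had an adjusted p of 0.0476, with −0.79, −0.20 and −0.14. The beta-actin 5′ to 3′ ratio of the vinclozolin arrays also differed by generation (0.149 and 0.192 in F1, 0.219 and 0.247 in F2, 0.36 and 0.395 in F3). With that ratio as a covariate none of the 4 F tests was called. The ratio did not overlap between the lineages, so that fit cannot tell its part from that of lineage. Groups of 2 arrays are too small to look for single stray arrays.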

How the results depend on the processing

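Falls of Cct6a 1377006_at in all 3 generations and of Hsp90ab1 1375335_at, Hsph1 1385620_at and Hspa9 1370690_at in F1 and F2 were called under every alternative that tested them except the beta-actin covariate, under which Cct6a 1377006_at was still called in F3, as were the fall of Hspa4 and the rise of Dnajb6. With the beta-actin ratio as covariate, limma called 0 members higher or lower in F1, in F2 and for the mean, and 0 depended on generation, while in F3 it called 1 higher and 2 lower (3.41%, where 1.14% of all tested probe sets were called). At an unadjusted p under 0.05 there were 11, 15, 14 and 12 members in F1, F2, F3 and the mean. Standard errors grew 4.40-fold in F1, 2.97-fold in F2, 1.24-fold in F3 and 4.66-fold for the mean; the ratio did not overlap between the lineages. Called values that turned sign under it were in F1 Dnajc7 (−0.43), Dnajc2 (−0.64), Hspa9 1391915_at (−1.47), Dnajc15 (−0.64), Dnajc3 (−0.95), Dnajc19 (−0.69), Cct3 (−1.09), Dnajc8 (−0.77), Cct5 1376570_at (−0.61), Hspa9 1370690_at (0.44), Hsph1 1385620_at (0.51), Hspa9 1388851_at (0.065), Dnaja3 (0.089), Dnajc13 (0.71) and Dnajb4 (0.25). In F2 they were Dnajc7 (−0.043) and Hsph1 1385620_at (0.082), and for the mean Dnajc7 (−0.089), Dnajc19 (−0.35), Hspa13 (−0.0048), Dnajc2 (−0.49), Cct5 1376570_at (−0.34), Dnajc8 (−0.46), Hspe1 (−0.56), Hspbap1 (−0.023), Cct6a 1398960_at (−0.25), Hspa9 1370690_at (0.17) and Hsph1 1385620_at (0.14), all without a call. Hsp90ab1 1375336_at turned to −0.14 for the mean under quantile normalization, with a call.

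Median centring gave 20 higher and 9 lower in F1, 11 higher in F2 and 32 higher for the mean. With no filter, 7 were higher in F1, and 17.4% of members were called either way where 14.2% of all probe sets were. The brightest probe set of each gene gave 6 lower in F1, 4 in F2, 1 in F3 and 8 for the mean, and 2 that depended on generation, among 66 tested. Arrays of F1 alone gave 2 higher and 8 lower (11.5% of members, where 10.4% of all tested probe sets were called). Those of F3 alone gave 3 and 6 (10%, where 10.4% of all were). The mean of F2 and F3 alone gave 6 higher, with 20.5% of members called either way where 18.8% of all were. The cause of these shifts was not tested. Leaving out 1 array gave 2 to 19 higher and 8 to 15 lower in F1, 1 to 5 and 8 to 12 in F2, 0 to 3 and 2 to 6 in F3, and 7 to 23 and 13 to 19 for the mean. It gave 2 to 23 that depended on generation, the highest without replicate 1 of the F1 vinclozolin group, and 0 among controls. The numbers called over all tested probe sets also changed when 1 array was left out. With the replicate number as a block, counts were 11 and 14 in F1, 4 and 9 in F2, and 1 and 3 in F3. For the mean they were 13 and 18, and 3 members depended on generation. The share called was 28.4%, 14.8%, 4.55% and 35.2% of members in F1, F2, F3 and the mean. Over all tested probe sets it was 23.1%, 14.3%, 3.28% and 33.1%. Of 3857 results of named genes under all alternatives, F tests among them, 3511 stayed on their side of the threshold. These include results that were not called to begin with and stayed so, so the number does not measure how stable the calls were. Direction was compared only where a call was made. With 2 arrays a group, their number limits the precision of each value.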
